A study of Mus musculus with 7 samples.

Results

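The genes described here encode the route by which kidney cells make glucose and hand it to the blood. The 8 members were chosen by symbol for their place in the pathway, with earlier results of these data known. They were the gluconeogenic enzymes Pck1, Pck2, Pcx, Fbp1 and G6pc, the glucose 6-phosphate carrier Slc37a4 and the glucose transporters Slc2a2 and Slc5a2. All 8 were found among the 45706 genes of the count table, and all 8 were among the 15399 genes with enough counts to be tested. RNA came from 7 kidneys of male Slc7a9-/- mice aged 6 months, so every kidney lacked the light chain of the cystine transporter and none was wild type. The untreated group had 3 mice, and the ergothioneine group had 4 mice given L-ergothioneine, a sulfur-containing dietary antioxidant, in the drinking water at 16 mg/kg/day. No source used here gives the duration of treatment, litter, cage, feeding state or time of collection. The comparison asks how the RNA of this cystinuria model differs with the compound.

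Gluconeogenesis runs glycolysis in reverse around its irreversible steps. Pyruvate is carboxylated to oxaloacetate by pyruvate carboxylase (Pcx), oxaloacetate is converted to phosphoenolpyruvate by the cytosolic or the mitochondrial phosphoenolpyruvate carboxykinase (Pck1 and Pck2), fructose 1,6-bisphosphatase (Fbp1) removes a phosphate further up, and glucose 6-phosphatase (G6pc) releases free glucose in the endoplasmic reticulum, where Slc37a4 delivers its substrate. In the kidney the pathway belongs to the proximal tubule, which also recovers filtered glucose through the apical cotransporter SGLT2 (Slc5a2) and passes glucose to the blood through GLUT2 (Slc2a2). Renal gluconeogenesis draws mainly on lactate, glutamine and glycerol and is known to respond to fasting, acidosis, insulin and catecholamines.

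Depth was 14843899 to 19791575 counts per library, and p-values set the difference between groups against the spread between these kidneys. Proximal tubule, thick ascending limb and collecting duct markers were all expressed, as kidney requires, with Lrp2 at 8081 ± 893 CPM (counts scaled to library size, SD, n = 3) in the untreated group. Untreated libraries 1 and 2 stood apart: short non-coding genes held 12.2% and 16.2% of their TPM (abundance scaled to transcript length and depth), against 37.5% to 48.7% in the other 5 libraries. Differences are therefore given on the counts, and the values without both libraries stand beside the calls. Leaving out both leaves 1 untreated kidney, so the spread in that fit comes from the treated group alone. Only effect sizes are read from it, and calls kept or lost there carry little weight. The targeted gene Slc7a9 stood at 6.22 ± 0.603 CPM (SD, n = 3) and 7.56 ± 1.71 CPM (SD, n = 4), which checks no label because no wild-type kidney was compared. Fewer cells of a type and less RNA per cell cannot be told apart in whole kidney.

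Of the 8 members, 3 fell with ergothioneine (Pck1, Pcx and Fbp1), 0 rose and 5 did not pass (edgeR quasi-likelihood test, Benjamini-Hochberg adjusted p under 0.05). Over all genes tested 7.16% were called, and 3.57% were called lower. These shares are set beside the members without a test, because the members were not chosen blind to these data. For 4 of the 8 members the kidneys of the groups were fully separated, against 18.6% of all genes tested. The median log2 fold change of the members was -0.05, beside -0.0031 for all genes tested. The 3 that fell encode enzymes, and the 5 that did not pass were the enzyme genes Pck2 and G6pc and the 3 carrier genes.

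**Figure D1:**
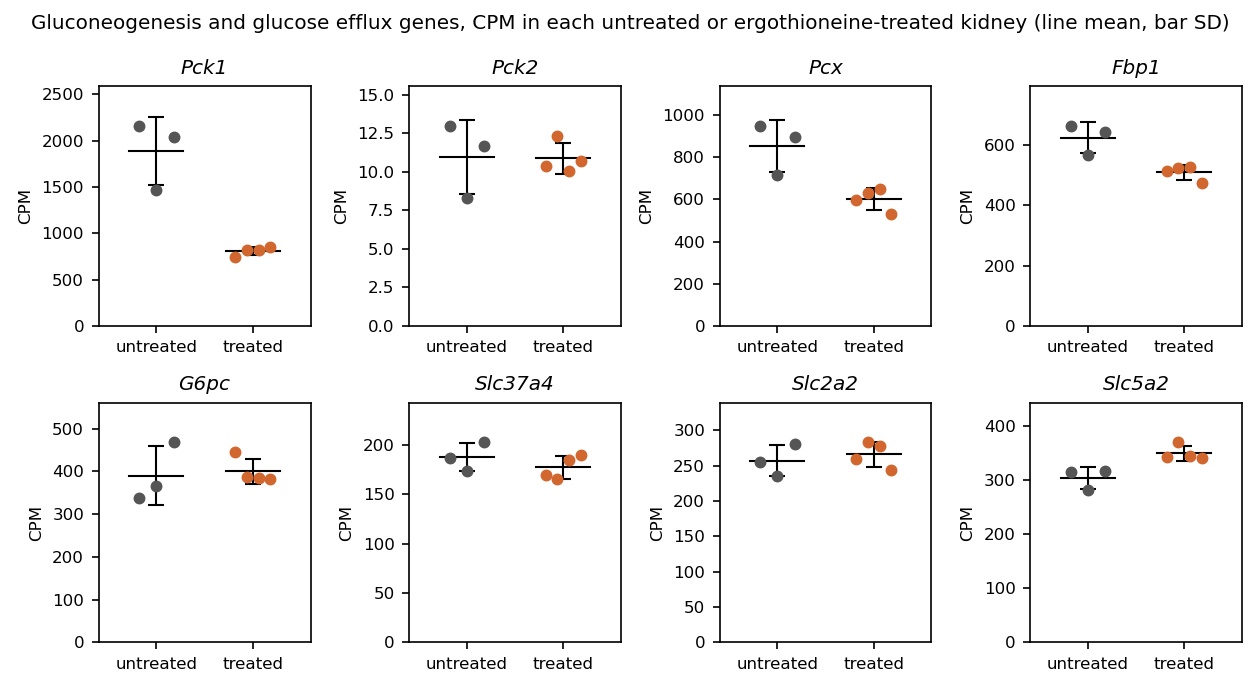
CPM of each of the 8 genes in every kidney (y axis, from 0), with untreated kidneys in grey and ergothioneine-treated kidneys in orange, the line at the group mean and the bar showing the SD (n = 3 and 4). All 4 treated kidneys lie below all 3 untreated ones for Pck1, Pcx and Fbp1 and above them for Slc5a2, and the groups overlap for the other 4 genes.

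Pck1 (ENSMUSG00000027513, chromosome 2, 173153048 to 173159273, plus strand, GRCm38) encodes the cytosolic carboxykinase, the classical control point of the pathway. It stood at 2158, 1467 and 2042 CPM in untreated kidneys 1 to 3 and at 748, 818, 820.0 and 849 CPM in treated kidneys 1 to 4. The lowest untreated kidney was far above the highest treated one, and the treated kidneys lay within a much narrower range. Mean levels were 1889 ± 370.1 CPM (SD, n = 3) and 809 ± 42.9 CPM (SD, n = 4), so the treated mean was lower by more than the spread in either group. The log2 fold change was -1.22 ± 0.11 (SE, 95% interval -1.47 to -0.98, edgeR adjusted p = 6.79e-05), a ratio of 0.428. Only 0.513% of the genes tested had a more negative log2 fold change. Without untreated libraries 1 and 2, which leaves 1 untreated kidney, the log2 fold change was -1.33, and leaving out single libraries gave -1.38 to -1.11.

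Pcx (ENSMUSG00000024892, chromosome 19, 4510472 to 4621752, plus strand), the mitochondrial enzyme that feeds oxaloacetate to Pck1 and to the citric acid cycle, stood at 947, 713 and 894 CPM untreated and at 599, 629.8, 651 and 532 CPM treated. Its groups were separated by a smaller gap than those of Pck1, with untreated kidney 2 nearest to the treated ones. The means were 852 ± 123 CPM (SD, n = 3) and 603 ± 51.9 CPM (SD, n = 4), and the log2 fold change was -0.50 ± 0.09 (SE, edgeR adjusted p = 0.00613). It was -0.57 without untreated libraries 1 and 2. Fbp1 (ENSMUSG00000069805, chromosome 13, 62864753 to 62888282, minus strand), whose product opposes phosphofructokinase, stood at 663, 567 and 642 CPM untreated and at 513, 525, 526 and 472 CPM treated. Here too the groups did not overlap, and untreated kidney 2 was again the lowest of its group. The means were 624 ± 50.7 CPM (SD, n = 3) and 509 ± 25.1 CPM (SD, n = 4), with a log2 fold change of -0.29 ± 0.07 (SE, edgeR adjusted p = 0.0123). The Fbp1 call was lost without untreated library 1 (-0.25, edgeR adjusted p = 0.0734). Without untreated libraries 1 and 2 together its log2 fold change was -0.33.

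Upstream sequence is shown for the 3 genes that fell and for G6pc, the last enzyme of the same route, which did not pass, so that the letters before their starts can be read side by side. RefSeq windows (GRCm38.p6) were available for 7 of the 8 members, by symbol. The 250 bases before each RefSeq start are used, and motif positions are counted from that start. It can differ from the gene start given with each gene. The Pck1 and G6pc windows run past those gene starts, 173153048 and 101367561. Capitals mark matches, on either strand, to short motifs of factors known to act on the pathway or the clock: CACGTG (the E-box), TGACGTCA (the cyclic AMP response element), TTACGTCA (the variant of that element known from Pck1 and searched for that reason), TTANGTAA (the D-box) and AGGTCA (the nuclear receptor half-site). TGACGTCA and TTACGTCA share their last 6 letters, and TTACGTAA, a form of the D-box, shares its first 6 letters with TTACGTCA. The windows are chr2:173152823-173153072 on the plus strand for Pck1, chr19:4510222-4510471 on the plus strand for the first Pcx start, chr13:62888283-62888532 on the minus strand for Fbp1 and chr11:101367466-101367715 on the plus strand for G6pc, each written 5′ to 3′.
Pck1: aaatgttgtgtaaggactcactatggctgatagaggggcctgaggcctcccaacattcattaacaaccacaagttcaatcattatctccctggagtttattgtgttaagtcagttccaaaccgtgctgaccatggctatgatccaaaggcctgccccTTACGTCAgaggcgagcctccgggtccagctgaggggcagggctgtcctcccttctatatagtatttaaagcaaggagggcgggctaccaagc
Pcx: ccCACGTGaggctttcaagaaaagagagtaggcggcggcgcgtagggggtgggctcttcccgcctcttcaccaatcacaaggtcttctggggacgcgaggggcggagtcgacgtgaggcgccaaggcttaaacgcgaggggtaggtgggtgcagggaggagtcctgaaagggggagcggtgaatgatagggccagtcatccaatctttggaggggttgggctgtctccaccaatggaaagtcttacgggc
Fbp1: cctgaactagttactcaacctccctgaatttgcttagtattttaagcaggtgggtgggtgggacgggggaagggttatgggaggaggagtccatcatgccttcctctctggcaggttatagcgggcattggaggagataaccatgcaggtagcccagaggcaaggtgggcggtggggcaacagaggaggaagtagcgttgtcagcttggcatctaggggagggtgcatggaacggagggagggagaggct
G6pc: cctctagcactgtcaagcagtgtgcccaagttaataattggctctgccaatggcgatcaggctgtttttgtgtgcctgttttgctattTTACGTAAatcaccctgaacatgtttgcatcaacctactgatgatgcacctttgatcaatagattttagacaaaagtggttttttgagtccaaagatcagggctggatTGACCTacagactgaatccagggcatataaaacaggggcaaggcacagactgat

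The Pck1 window held TTACGTCA with its first base at -93 from the start, a string found in 0.447% of all 32851 windows of this length. Its Pcx counterpart held CACGTG at -248, found in 6.02% of windows, and a second Pcx start held none of the motifs. Which of the 2 Pcx starts these kidneys used was not tested. Fbp1 held none of them. G6pc held TTACGTAA at -162, a D-box form that matches on both strands (2.06% of windows hold a D-box), and AGGTCA on the minus strand at -54 (14.02% of windows). Slc37a4 and Slc2a2 also held AGGTCA, at -127 in the first of 3 windows and at -21. The 3 genes that fell shared none of the 5 motifs in these windows, which says only that these letters are not shared there.

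Pck2 (ENSMUSG00000040618, chromosome 14, 55540266 to 55551242), the mitochondrial counterpart of Pck1, was scarce, with 124 to 244 counts per library. It stood at 12.98, 8.31 and 11.7 CPM untreated and at 10.4, 12.3, 10.1 and 10.7 CPM treated, so the groups overlapped fully. The log2 fold change was -0.02 ± 0.14 (SE, 95% interval -0.31 to 0.27, edgeR adjusted p = 0.961), and the sign turned when single libraries were left out. Within a library, Pck1 had 230.1, 237 and 237 times the TPM of Pck2 in the untreated kidneys and 99.5, 90.5, 112 and 111 times in the treated ones. The ratio varied by little within a group and fell into separate ranges.

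G6pc (ENSMUSG00000078650, chromosome 11, 101367561 to 101377903) encodes the catalytic subunit that frees glucose from its phosphate. It stood at 337, 366 and 468 CPM untreated and at 445, 388, 385 and 382 CPM treated. Untreated kidney 3 and treated kidney 1 were the high ones and the groups overlapped. The log2 fold change was 0.04 ± 0.11 (SE, 95% interval -0.20 to 0.27, edgeR adjusted p = 0.9), and it was -0.22 without untreated libraries 1 and 2. Slc37a4 (ENSMUSG00000032114, chromosome 9, 44396852 to 44402968), the carrier that brings glucose 6-phosphate to that enzyme, stood at 186, 173 and 202 CPM untreated and at 169.5, 165, 185 and 189 CPM treated. These ranges overlapped as well, and the log2 fold change was -0.08 ± 0.07 (SE, 95% interval -0.22 to 0.06, edgeR adjusted p = 0.556).

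The related phosphatase G6pc3, expressed in most tissues, stood at 34.3 ± 4.06 CPM (SD, n = 3) and 34.7 ± 2.92 CPM (SD, n = 4), and its log2 fold change was 0.02 ± 0.09 (SE, edgeR adjusted p = 0.941). G6pc2, the islet form, did not exceed 3 counts in any library, too few for a test. Fbp2, the muscle isoenzyme of Fbp1, was low, at 9.52, 8.98 and 7.63 CPM untreated and 12.2, 10.2, 12.2 and 11.2 CPM treated. All treated kidneys were above all untreated ones for Fbp2, the opposite order to Fbp1, but the difference did not pass (log2 fold change 0.39 ± 0.12 (SE), edgeR adjusted p = 0.0618).

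Slc2a2 (ENSMUSG00000027690, chromosome 3, 28697903 to 28731359), which encodes the basolateral exit route GLUT2, stood at 255, 236 and 280.5 CPM untreated and at 259, 283, 278 and 244 CPM treated. The groups overlapped, with a log2 fold change of 0.05 ± 0.07 (SE, 95% interval -0.09 to 0.19, edgeR adjusted p = 0.756). Slc5a2 (ENSMUSG00000030781, chromosome 7, 128265657 to 128272430), which encodes the apical SGLT2 of the early proximal tubule, stood at 315, 281 and 316 CPM untreated and at 343, 369, 344 and 339.8 CPM treated. Every treated kidney was above every untreated one, although by a narrow margin. The log2 fold change was 0.20 ± 0.06 (SE, 95% interval 0.07 to 0.33), and it missed the threshold (edgeR adjusted p = 0.0574). It passed by DESeq2 (adjusted p = 0.0334), with upper-quartile scaling and under other filters on low counts. Without untreated libraries 1 and 2 the log2 fold change was 0.15. Slc5a1, which encodes the higher-affinity SGLT1 of the late segment, stood at 87.6 ± 8.43 CPM (SD, n = 3) and 86.2 ± 2.89 CPM (SD, n = 4), with a log2 fold change of -0.02 ± 0.07 (SE, edgeR adjusted p = 0.905).

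**Figure D2:**
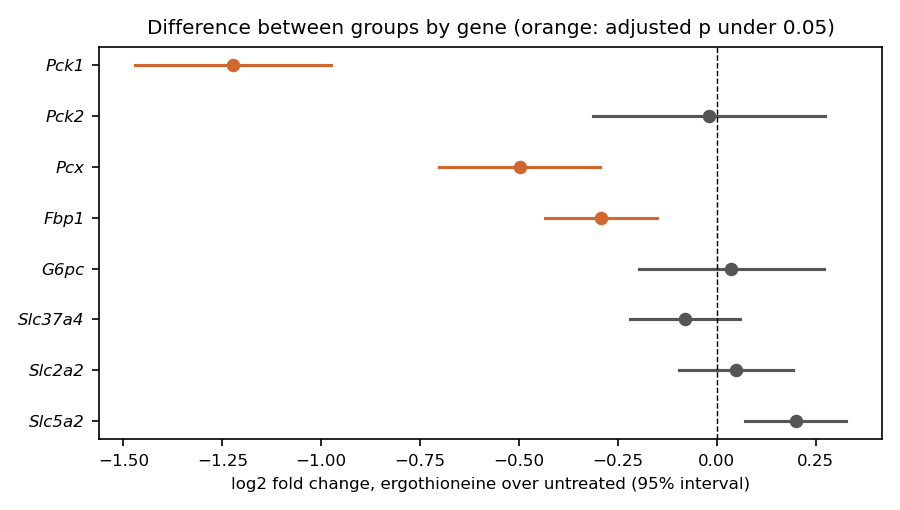
Log2 fold change of ergothioneine over untreated kidneys for each of the 8 genes (x axis), with the 95% interval from the fit over all genes as a bar and genes with an edgeR adjusted p under 0.05 in orange. The intervals of Pck1, Pcx and Fbp1 lie below 0, that of Slc5a2 lies above 0 without passing after adjustment, and those of the other 4 genes span 0.

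The order of levels among the members changed between the groups. On TPM rescaled to leave out short non-coding genes, which are per length, untreated levels were 1290.5 ± 321 for Pck1, 947 ± 148 for Fbp1, 345 ± 65.7 for Pcx, 287 ± 72.4 for G6pc, 272 ± 38.8 for Slc5a2, 163 ± 24.8 for Slc37a4, 118 ± 28.8 for Slc2a2 and 5.50 ± 1.40 for Pck2 (SD, n = 3). Treated levels were 763 ± 29.8 for Fbp1, 561 ± 48.9 for Pck1, 318 ± 22.98 for Slc5a2, 293 ± 13.4 for G6pc, 245 ± 22.2 for Pcx, 154 ± 12.2 for Slc37a4, 128 ± 15.0 for Slc2a2 and 5.46 ± 0.691 for Pck2 (SD, n = 4). Pck1 was first in all 3 untreated libraries and Fbp1 in all 4 treated ones. Pcx moved from the third place in all 3 untreated libraries to the fifth in all 4 treated ones. Neighbours whose ranges across kidneys overlapped were Pck1 and Fbp1, and Pcx, G6pc and Slc5a2, in the untreated group, Slc5a2 and G6pc in the treated group, and Slc37a4 and Slc2a2 in both.

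Within each library the ratio of Pck1 to Fbp1 TPM was 1.49, 1.17 and 1.39 untreated and 0.650, 0.730, 0.725 and 0.837 treated. Pck1 to Pcx was 3.90, 3.42 and 3.83 untreated and 2.14, 2.20, 2.14 and 2.75 treated. Both ratios separated the groups, as did Pck1 to Pck2. All 3 have Pck1 as numerator, which fell by more than Fbp1, Pcx or Pck2, so their separation is no separate result. In contrast, Slc37a4 to G6pc was 0.656, 0.562 and 0.512 untreated and 0.451, 0.506, 0.567 and 0.588 treated, and Slc5a2 to Slc2a2 was 2.48, 2.47 and 2.08 untreated and 2.67, 2.41, 2.30 and 2.66 treated, with overlapping ranges. Slc5a2 to Slc5a1 ranged from 7.26 to 8.4 untreated and from 8.75 to 9.18 treated, without overlap, whereas Slc2a2 to Slc2a1 (5.32 to 7.01 and 4.51 to 5.58) and G6pc to G6pc3 (5.55 to 6.48 and 5.03 to 7.72) overlapped. These ratios, and that of Pck1 to Adipoq below, are all 9 that were computed, and they are given as values with no test.

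**Figure D3:**
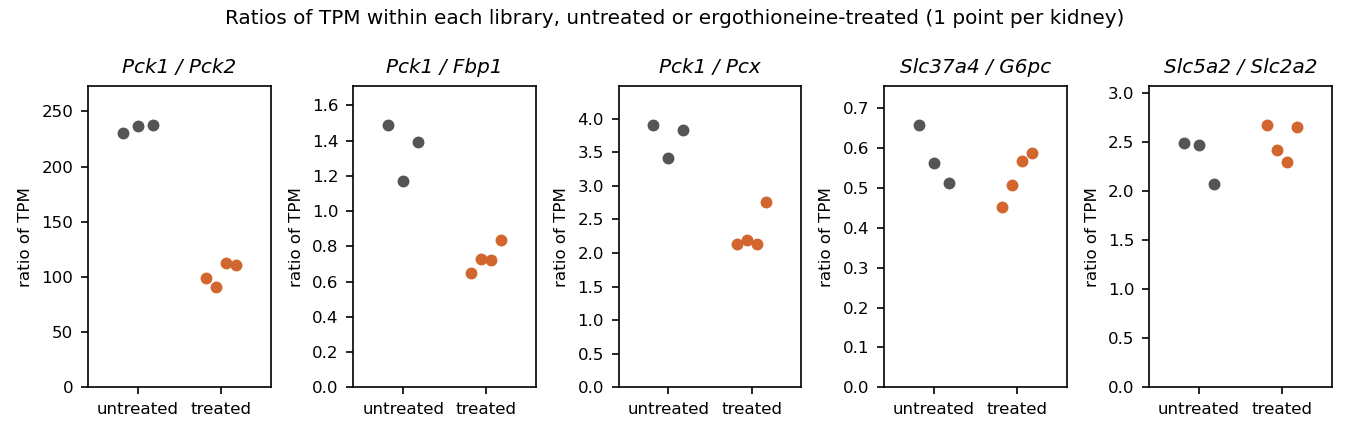
The 5 of the 9 ratios of TPM that pair members with each other, within each library (y axes, from 0), with untreated kidneys in grey and ergothioneine-treated kidneys in orange, 1 point per kidney. The 3 ratios with Pck1 as numerator lie lower in all 4 treated kidneys, and the ratios of Slc37a4 to G6pc and of Slc5a2 to Slc2a2 overlap.

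The untreated kidneys also differed among themselves. Untreated kidney 2 was the lowest of its group in 7 of the 8 members, all but G6pc. How often it was the lowest over all genes tested was not counted, so this may not be particular to the members. Untreated kidney 1 was the highest for Pck1, Pck2, Pcx and Fbp1, and untreated kidney 3 for G6pc, Slc37a4, Slc2a2 and Slc5a2. Over the 7 libraries the Pearson correlation of log2 CPM with Pck1 was 0.93 for both Fbp1 and Pcx, 0.56 for Slc37a4, 0.23 for Pck2, -0.12 for Slc2a2, -0.15 for G6pc and -0.70 for Slc5a2. These values describe 7 points that fall into the treatment groups. Among 12057 other protein-coding genes whose log2 CPM averaged 1 or more, the 5 most correlated with Pck1 were the histone methyltransferase gene Kmt2a and the vesicle coat adaptor gene Clint1 (both 0.99), the adhesion receptor gene Adgre5 (0.99), the glycosylation gene Alg12 (0.99) and Mtus1 (0.99), with log2 fold changes of -0.33, -0.26, -0.35, -0.48 and -0.30. Because Pck1 separates the groups, genes picked for their correlation with it over the same libraries must be lower in the treated group. Their fall is therefore no separate result, and only the sizes of their differences are given.

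The enzymes that glycolysis and gluconeogenesis share did not follow Pck1. Of 10 tested, 1 rose and 0 fell, with a median log2 fold change of 0.08. The risen gene was the triose phosphate isomerase gene Tpi1 (0.20 ± 0.06 (SE), edgeR adjusted p = 0.0454). Its call was lost on leaving out any single library except untreated library 2 (edgeR adjusted p up to 0.131). Among 18 tested isoenzymes and enzymes of the opposing direction 2 rose and 2 fell, with a median of 0.03. The pyruvate kinase gene Pkm (0.46 ± 0.06 (SE)) and the platelet-type phosphofructokinase gene Pfkp (0.51 ± 0.07) rose, and the hexokinase gene Hk2 (-1.80 ± 0.36, from 2.01 to 0.565 CPM) and the liver-type pyruvate kinase gene Pklr (-0.32 ± 0.08) fell. Pklr lost its call without untreated library 1 or treated library 1 (edgeR adjusted p = 0.0706 and 0.0554). Without treated library 3, 4 genes of this list rose.

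Genes that bring substrate to the pathway changed in both directions. Of 18 genes for lactate, pyruvate and malate supply 4 rose and 3 fell (38.9% called), with a median log2 fold change of 0.08. Slc16a1, which encodes the monocarboxylate transporter MCT1, rose from 22.2, 25.2 and 23.8 CPM to 60.5, 56.3, 57.5 and 72.0 CPM (1.38 ± 0.09 (SE), edgeR adjusted p = 7.56e-08). The lowest treated kidney was far above the highest untreated one. Slc16a7, which encodes MCT2, rose as well (0.75 ± 0.10 (SE)), whereas Slc5a8, the sodium-coupled lactate carrier of the apical membrane, fell (-0.36 ± 0.06 (SE)), as did the mitochondrial dicarboxylate carrier gene Slc25a10 (-0.37 ± 0.07 (SE)). A further 3, named only after seeing their values, were called: the aspartate aminotransferase gene Got1 (0.24) and the citrate carrier gene Slc25a1 (0.22) rose, and the aspartate-glutamate carrier gene Slc25a13 (-0.21) fell. The 4 that rose became 2 when untreated library 1 or 2, or treated library 1, 2 or 4 was left out.

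Of 11 tested genes for glutamine supply and ammonia production 0 rose and 2 fell by edgeR, with a median of -0.01. The alanine aminotransferase gene Gpt2 fell (-0.59 ± 0.08 (SE), edgeR adjusted p = 0.000397), as did the glutamine synthetase gene Glul (-0.28 ± 0.07 (SE)). The Glul call was lost without untreated library 1 or treated library 1 (edgeR adjusted p = 0.0877 and 0.0619). The glutamine transporter gene Slc38a3, named after its value was seen, stood at 58.9 ± 12.2 CPM (SD, n = 3) and 59.3 ± 8.75 CPM (SD, n = 4). Its log2 fold change was 0.01, with a wide 95% interval of -0.40 to 0.42 (edgeR adjusted p = 0.985). Without untreated library 1 or treated library 3, 1 gene of this list rose.

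For glycerol, fructose and sorbitol entry 1 of 10 genes rose and 2 fell, with a median of -0.15. The water and glycerol channel gene Aqp7 rose (0.41 ± 0.08 (SE)), and the glycerol kinase gene Gk (-0.28 ± 0.06) and the glycerol 3-phosphate dehydrogenase gene Gpd1 (-0.26 ± 0.06) fell. Gpd1 missed the threshold, and the number that fell was 1, on leaving out untreated library 1 or 3 or treated library 1 or 2 (edgeR adjusted p up to 0.0846). Of 16 other sugar transporter and accessory genes 4 rose and 0 fell, with a median of 0.02. They were Slc2a4 (GLUT4, 0.55 ± 0.09 (SE)), Slc2a1 (GLUT1, 0.40 ± 0.07), Slc2a12 (GLUT12, 0.35 ± 0.09) and Pdzk1ip1 (0.21 ± 0.06), which encodes a small partner of SGLT2. Slc2a12 kept its call only without untreated library 1 or treated library 3, and Pdzk1ip1 only without untreated library 2 or treated library 4 (edgeR adjusted p up to 0.0942 and 0.137 without the others). On leaving out untreated library 3, treated library 1 or treated library 2 the number that rose was 2, and without treated library 3, 1 gene of this list fell.

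**Figure D4:**
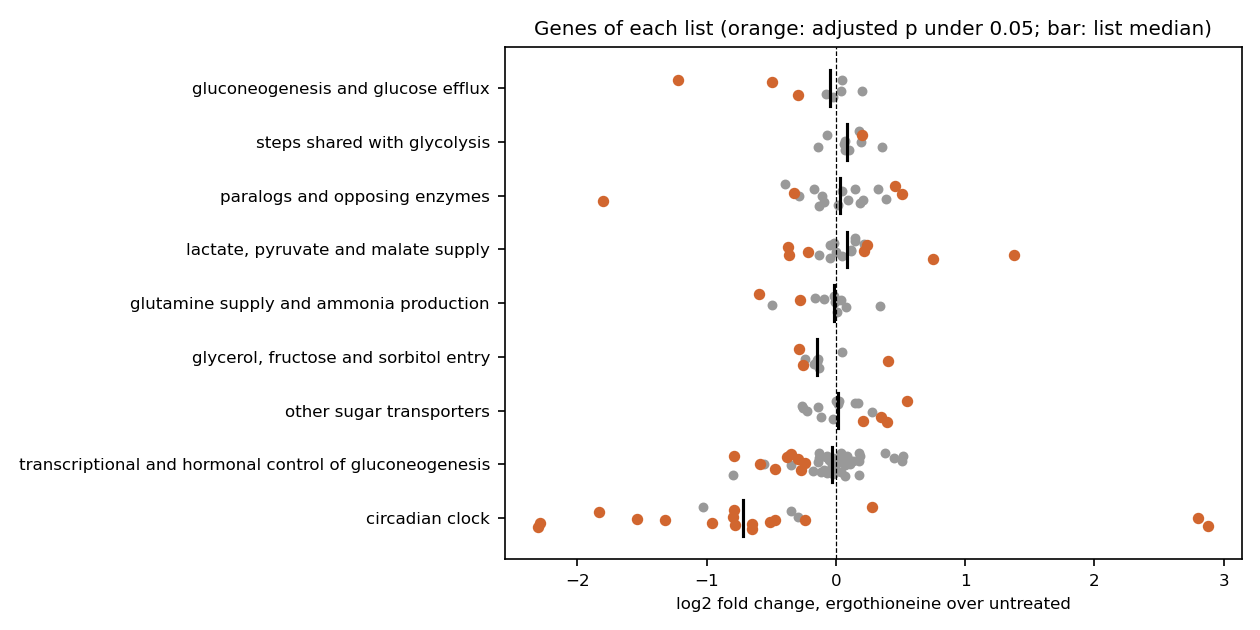
Log2 fold change of ergothioneine over untreated kidneys (x axis) for each tested gene of the 9 pathway lists, in orange where the edgeR adjusted p is under 0.05, with a bar at each list's median. Pck1 at -1.22 lies far to the left of the other members, and the clock list spreads the widest, from Ciart, Per2 and Dbp on the left to Arntl and Npas2 on the right.

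Transcriptional and hormonal regulators of gluconeogenesis were called in the same direction where they were called at all. Of 50 tested, 0 rose and 8 fell (16% of the list, beside 3.57% called lower over all genes), with a median log2 fold change of -0.03. This list too was chosen with earlier results of these data known. The salt-inducible kinase gene Sik1, a known brake on the CREB coactivators (-0.38 ± 0.07 (SE)), the acetyltransferase gene Ep300 (-0.29 ± 0.06), the fasting-response receptor gene Ppara (-0.58 ± 0.11) and the clock repressor gene Cry2 (-0.47 ± 0.08), known to restrain Pck1 in liver, had the smallest adjusted p-values (0.0014 to 0.0128 by edgeR). Foxo1 (-0.24), Foxo3 (-0.27), Cebpa (-0.34) and Cry1 (-0.79), the other 4 that fell, are named here after seeing their values. Cry1 and Cry2 are also in the clock list and are counted again among the clock genes that fell. Foxo1, the forkhead factor restrained by insulin, moved from 118 ± 5.82 CPM (SD, n = 3) to 99.9 ± 3.78 CPM (SD, n = 4). The 8 became 3 without untreated library 1, 4 without untreated libraries 1 and 2, and 5 without treated library 4, and 1 rose without untreated library 2. Ppara missed the threshold without untreated library 1 (edgeR adjusted p = 0.0504). The coactivator gene Ppargc1a stood at 131 ± 13.5 and 148 ± 9.62 CPM, Hnf4a at 999 ± 34.1 and 954 ± 23.8 CPM, and the glucocorticoid receptor gene Nr3c1 at 183 ± 15.9 and 187 ± 6.95 CPM, none past the threshold (edgeR adjusted p = 0.154, 0.611 and 0.844).

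Other transcripts also differed between the groups. Of 20 clock genes 3 rose and 14 fell, among them Per2 (-2.29 ± 0.10 (SE)), Per3 (-1.32 ± 0.07), Npas2 (2.88 ± 0.18) and Arntl (2.80 ± 0.18), and their part in the difference in Pck1, Pcx or Fbp1 was not tested. Fat cells also express Pck1 and Pcx, and of 13 tested adipocyte markers 10 fell and 0 rose, with a median log2 fold change of -2.25. The brown fat uncoupling protein gene Ucp1 fell from 20.9 ± 6.22 CPM (SD, n = 3) to 0.835 ± 0.733 CPM (SD, n = 4), a log2 fold change of -4.65. Cidea (-4.63), the lipid droplet coat gene Plin1 (-3.23) and the adiponectin gene Adipoq (-2.87) also fell, and these 4 are named after seeing their values. The summed level of all 15 adipocyte markers was 169 to 213 CPM untreated and 133 to 145 CPM treated, with none at 0 in every library, and its largest parts were Pnpla2 (-0.11) and Lipe (-0.06), which were not called, and Fabp4 (-0.67), which fell. The sum therefore moved by less than most of its members. Pck1 had 377 to 411 times the TPM of Adipoq in untreated libraries and 793 to 3085 times in treated ones. Adipoq had only 2 to 8 counts per treated library, so the treated range is loose. A ratio to 1 fat transcript does not measure how much Pck1 RNA came from fat. The part of adipocyte RNA in the differences of Pck1, Pcx and the other members was not tested.

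Within the proximal tubule, where these members are known to be expressed, 10 early-segment markers summed to 18712 to 22605 CPM untreated and 19243 to 20710.5 CPM treated, with 1 risen and 0 fallen. The sum of 10 late-segment markers was 5006 to 5247 CPM untreated and 4010.2 to 4231 CPM treated, without overlap, and 3 of them fell, including Atp11a and Slc7a13, while Slc6a18 did not pass and the median log2 fold change of the list was -0.0038. Hepatocyte markers, some of which the proximal tubule also expresses, summed to 1176 to 1582 CPM untreated and 699 to 994 CPM treated, of which Cyp2e1 alone made up 1248 of the untreated mean of 1374 CPM. Cyp2e1 and Serpina1a fell among 6 tested, whereas the other 4 had positive log2 fold changes and were not called (Ttr 0.28, Alb 0.38, Apoa2 0.39 and Fgb 0.92), and the median was 0.33. Ahsg and Cps1, too low to test, had 0 counts in all 3 untreated libraries and 1 to 51 and 4 to 39 counts in the treated ones. Alb, Apoa2, Fgb, Ahsg and Cps1 are named after seeing their values. The sums of distal convoluted tubule markers (1255 to 1377 CPM untreated, 1499.8 to 1770.3 CPM treated) and of collecting duct markers (325 to 349 and 373 to 430.4 CPM) were higher in all treated kidneys. Those of thick ascending limb, podocyte, endothelial, fibroblast and leukocyte markers overlapped. By single genes, 1 of 5 distal convoluted tubule and 3 of 8 collecting duct markers rose and 0 fell. Of 5 tested markers in each other list, 2 thick ascending limb and 1 podocyte marker rose and 1 leukocyte marker fell. No endothelial or fibroblast marker was called. Over all genes tested 7.16% were called. The part of these shifts in the members' differences was not tested.

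**Figure D5:**
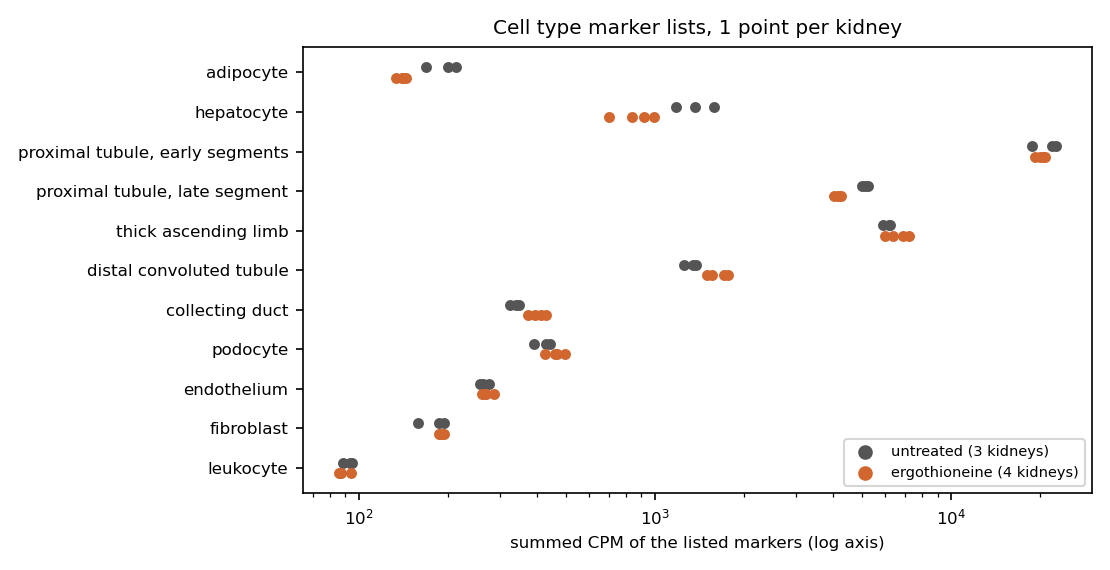
Summed CPM of the markers of 11 cell types (x axis, log scale), 1 point per kidney, with untreated kidneys in grey and ergothioneine-treated kidneys in orange. The late proximal tubule and adipocyte sums are lower in all 4 treated kidneys, as is the hepatocyte sum, which is mostly Cyp2e1, the early proximal tubule sums overlap, and the distal convoluted tubule and collecting duct sums are higher.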

How the data were processed

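Total RNA from frozen kidney was made into libraries with kits for ribosomal RNA depletion and for stranded mRNA, per the labels' protocols. The authors deposited expected counts and TPM per Ensembl gene, with a column per mouse. Per the submitters' processing notes the tools included STAR 2.7.10a, RSEM 1.3.1 and Salmon 1.10.1, on GRCm38, and no source used here gives their settings or the annotation release. Of the deposited expected counts 3.61% had a fractional part, as estimates that divide ambiguous reads do. Symbols and positions came from GENCODE M21, which held 45143 of 45706 identifiers.

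Counts were rounded and tested over all genes with edgeR 4.0.16 in R 4.3.3 (filterByExpr, TMM, robust quasi-likelihood F test, Benjamini-Hochberg adjustment, threshold 0.05), and the code was tested on simulated data. Each standard error is the size of the log2 fold change over the root of its F. Libraries were compared in pairs within each group, and none was a copy of another (chi-square per degree of freedom 7.48 to 25.4). Rescaled TPM is the deposited TPM divided by its sum without non-coding genes whose median transcript is under 400 nt. Alternatives were DESeq2 1.42.0, limma 3.58.1 (voom, and trend on log2 TPM), other scalings, filters and thresholds, blocks, and libraries left out.

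The members, 8 further pathway lists and 11 cell type lists were chosen with earlier results of these data known. The rule names all members, their paralogs Fbp2, G6pc2 and G6pc3, up to 4 called genes per pathway list, and up to 3 of the highest markers where a cell type list is described. It adds the 5 genes most correlated with Pck1. Other genes were named after their values were seen. Motifs were settled after a first search that also held the TATA and CCAAT boxes and windows reaching past the start, both dropped once matches had been seen. Ratios between members were not tested.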

Additional observations from a re-analysis of the deposited data

Results flagged for a closer look

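In the ergothioneine group G6pc had a kidney far from the other 3: treated kidney 1 stood at 445 CPM and the others at 382 to 388 CPM, so the gap to its nearest neighbour was 0.913 of the group's range, above the 95% critical value of 0.829 for 4 samples. Slc5a2 was similar, with treated kidney 2 at 369 CPM and the others at 339.8 to 344 CPM (0.87 of the range). Chance flags about 1 in 20 groups, and 8 genes were examined. Without treated library 1 the log2 fold change of G6pc was -0.02, and without treated library 2 that of Slc5a2 was 0.17, and neither passed (edgeR adjusted p = 0.957 and 0.178).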

How the results depend on the processing

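Pck1 fell in all 22 alternative fits, with a log2 fold change of -1.55 to -1.11 (adjusted p up to 0.018), and Slc37a4 was negative and uncalled in all 22. The 3 members called became 1 on log2(TPM + 1) without a filter and 1 on log2(rescaled TPM + 1), and 2 to 3 when single libraries were left out. Pcx was then -0.85 and -0.48 (limma adjusted p = 0.124 and 0.0958) and Fbp1 -0.68 and -0.30 (0.159 and 0.2). All genes called numbered 1102, 556 without untreated libraries 1 and 2, 64 on log2(TPM + 1) without a filter, 280 on log2(rescaled TPM + 1), 481 and 1741 at thresholds of 0.01 and 0.1, and 692 to 1103 without single libraries (692 without treated library 1, 710 without treated library 2). On log2(TPM + 1) 54 genes were called higher and 1484 lower, where the counts gave 552 and 550, and the median gene lay at -0.31 there. The direction of uncalled members turned in several settings. Pck2 was 0.0026 with the replicate block and 0.0094 on rescaled TPM, and -0.18 to 0.12 without single libraries. G6pc was -0.22 without untreated libraries 1 and 2, -0.32 in all 3 fits of deposited TPM, and -0.057 to 0.19 without single libraries. Slc2a2 was -0.073, -0.24 or -0.25, and -0.0093 to 0.12 in the same settings. On deposited TPM Slc5a2 was -0.15, Tpi1 -0.16 and Pdzk1ip1 -0.17. The cause of these changes was not tested. Replicate numbers are shared between the groups, but same-numbered kidneys did not deviate together (correlations of 0.03, -0.07 and 0.0027 for numbers 1 to 3). With the replicate number as a block 809 genes and 2 members were called, without Fbp1 (edgeR adjusted p = 0.0752). The number in each library name, split into high and low, was also used as a block. The high numbers were those of untreated libraries 1 and 2 and treated library 1, so this block was uneven over the groups. With it Pck1 (-1.29), Pcx (-0.52) and Fbp1 (-0.30) stayed called (edgeR adjusted p up to 0.0279). Among further fits of other named genes 574 kept direction and call, 102 lost the call and 6 turned. Pck2, at 124 to 244 counts, had the largest standard error of the members.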
